A study of Mus musculus with 4 samples.

Results

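The genes described are the ligands and receptors of the tumour necrosis factor (TNF) superfamily, with the TRAF adaptors that many of the receptors bind and the proteins named as TNF-induced. They were taken by name from the annotation of the array: names starting with Tnfsf, Tnfrsf or Tnfaip, Traf1 to Traf7, and Tnf, Lta, Ltb, Ltbr, Cd40, Cd40lg, Fas, Fasl and Eda2r. This gave 74 of 55681 probes, for 54 of 34782 genes and named transcripts, and 50 of the 54 genes were bright enough to be tested, among 29114 tested in all.

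The samples were lumbar spinal cord from 4 male ICR mice aged 8 weeks, an outbred strain carrying no engineered allele by the labels, each on 1 array. Spinal nerve ligation (SNL), a tight tie around the L5 spinal nerve, was done in 2 mice, and 2 sham mice had the same nerve exposed without a tie. Both groups were anaesthetised with isoflurane, perfused with saline and sampled at 10 days after the operation. The labels name the L4 to L5 segments in one field and L5 cord in another, and do not say from which side, so the tissue may hold cord that the tied nerve does not supply. Ligation is a standard model of neuropathic pain.

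TNF superfamily ligands are mostly membrane proteins that act as trimers, some of them shed from the cell, and each binds one or a few receptors of the matching family. Receptors with a death domain can recruit the machinery of apoptosis or necroptosis. Many receptors, with or without a death domain, lead to NF-kB and MAP kinase signalling through TRAF adaptors. Decoy receptors bind ligand without passing on a signal. In the spinal cord, TNF made by glia is known to strengthen excitatory transmission, and members of the family also govern lymphocytes, bone cells and the survival of neurons.

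Across the family, SNL cord had higher signal of the TNF receptor Tnfrsf1b (2.55-fold), the anti-inflammatory protein Tnfaip8l2 (2.53-fold), the ligands Tnfsf11 (4.60-fold) and Tnfsf8 (4.01-fold) and the death receptor Fas (2.17-fold), and lower signal of the ligand Tnfsf15 (2.53-fold). These 6 changes had an unadjusted p under 0.05, which in the limma fit with 2 mice per group already requires groups that do not overlap. None of them passed the Benjamini-Hochberg adjustment over all genes in limma, where the smallest adjusted p among members was 0.0908 for Tnfrsf1b. Among all genes tested, 0.161% passed as higher and 0.0103% as lower at an adjusted p under 0.05, against 0 of 50 members in each direction. At unadjusted p under 0.05, 8 members were higher (16%, against 6.67% of all genes) and 6 were lower (12%, against 5.48% of all genes). Without sham replicate 2 these counts were 5 and 3, when 4.31% of all genes were higher and 3.29% lower.

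Of the members, 5 were at least 2-fold higher at that unadjusted p and 1 was at least 2-fold lower, against 1.91% and 0.714% of all genes. The groups did not overlap for 17 members that were higher (34%, against 24.9% of all genes) and 9 that were lower (18%, against 20.9%). The median log2 change was 0.02 over the members and 0.03 over all genes, and 30 of 50 members (60%) were above 0, against 54.9% of all genes. With quantile normalization both medians were below 0, at -0.015 and -0.025. On the log2 scale 29 of 50 members (58%) lay within 0.3 of 0, against 72.9% of all genes. Of the 36 members with an unadjusted p of 0.05 or more, 20 turned sign under at least 1 alternative.

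**Figure D1:**
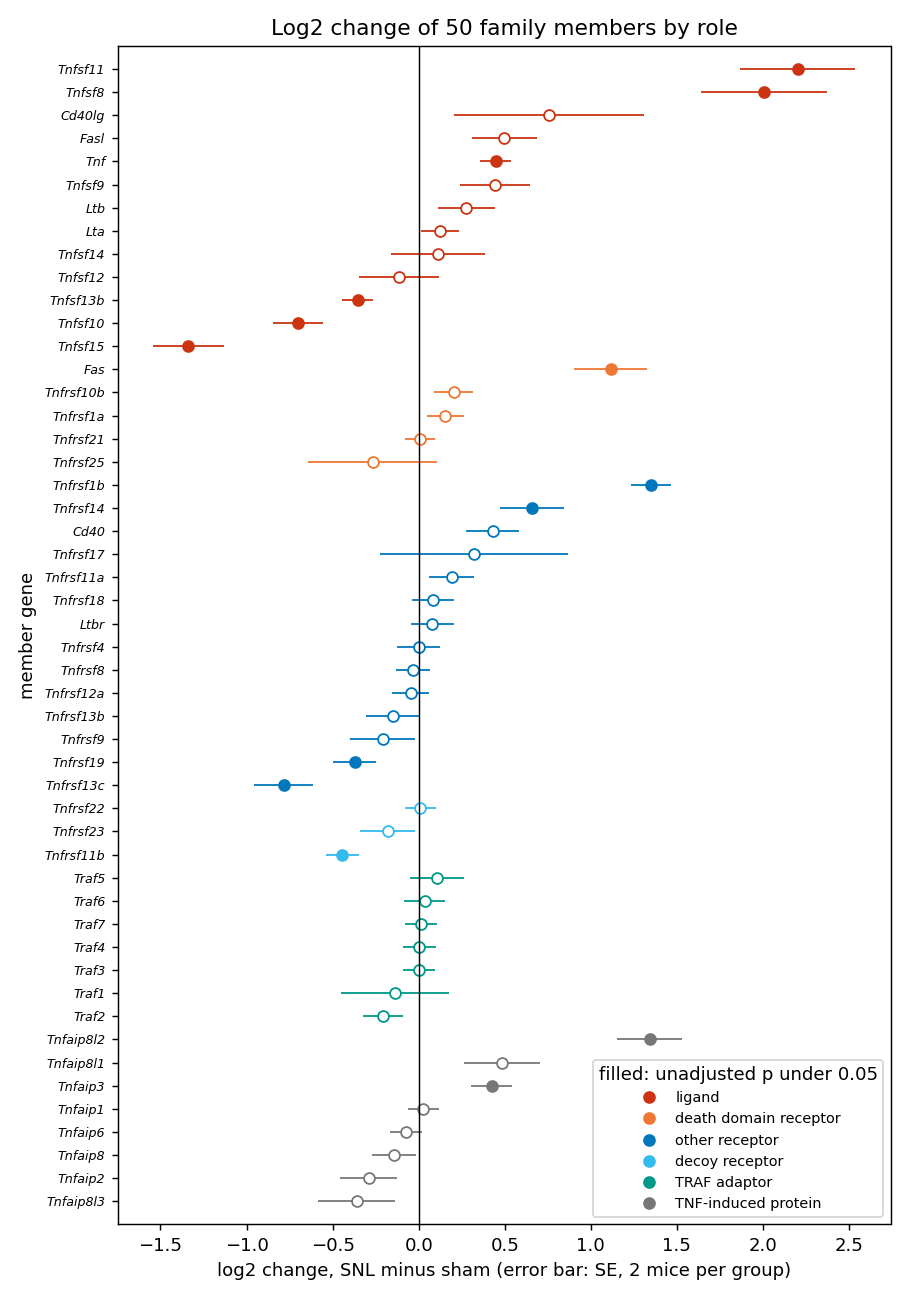
Log2 change, SNL minus sham, of each of the 50 members tested, grouped by role. Bars are the limma SE with 2 mice per group, and filled points mark an unadjusted p under 0.05. The ligands spread from -1.34 (Tnfsf15) to 2.20 (Tnfsf11), and the TRAF adaptors lie between -0.21 and 0.11.

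Levels are given below as log2 of a probe's signal relative to the 75th percentile of its array, so that 0 marks that percentile and each step of 1 is a factor of 2. They are compared between mice for one probe and never between probes. Errors are the SE of the log2 change from limma. It combines the spread of 2 mice per group with a variance shared over all genes tested. For the difference between 2 genes of a pair, the error is the plain SE from 2 mice per group. Counts below at an unadjusted p under 0.05 in limma are to be set beside the shares of all genes at that p, 6.67% higher and 5.48% lower.

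Among the ligands, 13 of 15 were tested, 3 were higher and 3 lower at unadjusted p under 0.05, and 0 passed the adjustment. Tnfsf11, the ligand RANKL that drives osteoclast formation and is also made by T cells, was at -7.79 and -7.37 in the sham mice and at -4.99 and -5.76 in the SNL mice. Both SNL mice lay above both sham mice, although the probe was well above background in only 1 of the 2 sham mice. Its log2 change was 2.20 ± 0.335 (unadjusted p = 0.00377, adjusted p = 0.176 in limma), and 1.48 with normexp background correction, which models the background of each spot. Tnfsf8, the CD30 ligand of activated lymphocytes and myeloid cells, was at -4.10 and -3.90 in sham and at -2.46 and -1.53 in SNL. The groups did not overlap, and the SNL mice differed from each other by far more than the sham mice did (SD 0.663 against 0.141). The change was 2.01 ± 0.365 (unadjusted p = 0.00693, adjusted p = 0.215).

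Tnf itself, the founding cytokine of the family, was dim, at -6.36 and -6.34 in sham and at -5.93 and -5.87 in SNL. The mice of a group lay close together and the groups did not overlap, but the change was small, at 0.45 ± 0.0903, or 1.36-fold (unadjusted p = 0.00977, adjusted p = 0.244 in limma). Its 95% confidence interval ran from 0.19 to 0.71. Over 13 alternatives the change ran from 0.36 to 0.48. The unadjusted p of Tnf in limma was under 0.05 in 9 of the 13. It was not with quantile normalization, with a variance trend and robust estimation, or when either sham mouse was left out. The lowest signal well above background was -7.86 and -8.01 on the sham arrays and -6.89 and -7.01 on the SNL arrays. Members left untested as too dim also read higher in SNL. Their log2 differences were 0.54 for Tnfsf18, 0.84 for Tnfsf4, 0.047 for Tnfrsf26, and 1.45 and 1.28 for the probes of Eda2r. Whether such a shift enters the change of Tnf was not tested.

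The ligands with lower signal are best known from endothelium, from immune surveillance and from B cells. Tnfsf15 (TL1A), a ligand of endothelial and myeloid cells that costimulates T cells, was at -4.27 and -4.72 in sham and at -5.95 and -5.71 in SNL. Both SNL mice lay below both sham mice, with a change of -1.34 ± 0.206 (unadjusted p = 0.00397, adjusted p = 0.178). With normexp background correction this change was -0.80. Tnfsf10 (TRAIL), which triggers apoptosis through death receptors, was at -1.31 and -1.59 in sham and at -2.09 and -2.21 in SNL. Its groups did not overlap and its change was -0.70 ± 0.145 (unadjusted p = 0.0104, adjusted p = 0.251). Tnfsf13b (BAFF), the survival factor of B cells, was at -0.093 and -0.12 in sham and at -0.47 and -0.46 in SNL. This was a small gap with little spread within groups, a change of -0.35 ± 0.0883 (unadjusted p = 0.019, adjusted p = 0.302).

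By their brightest probe, the other 7 ligands tested had an unadjusted p of 0.05 or more. The ligands Cd40lg, Fasl and Tnfsf9 were at log2 changes of 0.76, 0.50 and 0.44. They respectively activate antigen-presenting cells, kill target cells and costimulate T cells. Cd40lg was well above background in 1 mouse of each group only, and it was at 1.44 without SNL replicate 1 (unadjusted p = 0.017 in limma) but at 0.073 without SNL replicate 2. The lymphotoxins Ltb and Lta, which organise lymphoid tissue, were at 0.28 and 0.12. Tnfsf14 (LIGHT) was at 0.11, and Tnfsf12 (TWEAK), a ligand that acts on injured tissue, at -0.12. A second Tnfsf12 probe gave -0.36 ± 0.117 (unadjusted p = 0.0407, adjusted p = 0.387 over probes in limma). The costimulatory ligands Tnfsf4 and Tnfsf18 were not well above background on any of the 4 arrays and were not tested.

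**Figure D2:**
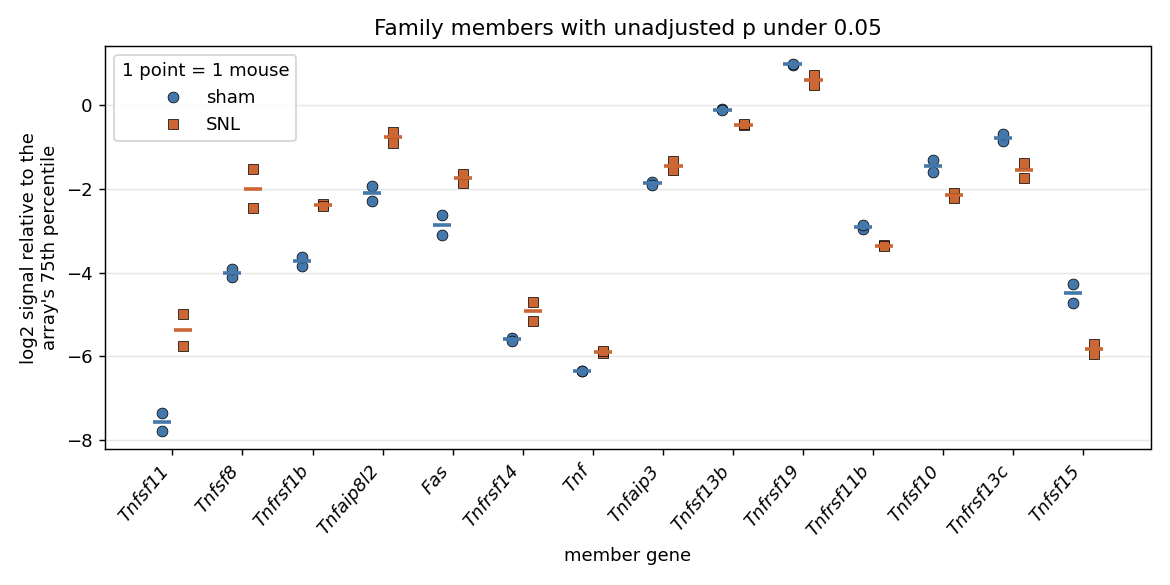
Log2 signal relative to the array's 75th percentile in each mouse (circles sham, squares SNL, bars the mean of 2 mice) for the 14 members with an unadjusted p under 0.05. The sham and SNL mice do not overlap for any of the 14, which that p already requires with 2 mice per group. The gap is widest for Tnfsf11 and Tnfsf8.

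The receptors divided along the TNF axis. Tnfrsf1b (TNF receptor 2), which binds TRAF proteins and is found mainly on microglia, other immune cells and endothelium, was at -3.83 and -3.63 in sham and at -2.36 and -2.41 in SNL. The SNL mice were nearly equal and lay clear of both sham mice. The change was 1.35 ± 0.117, the smallest p of any member (unadjusted p = 0.00052, adjusted p = 0.0908 in limma), with a 95% confidence interval from 1.01 to 1.69. It passed at an adjusted p of 0.0284 with a variance trend and robust estimation, also with normexp correction and with no filter on dim probes, and its adjusted p reached 0.522 when a mouse was left out. Tnfrsf1a (TNF receptor 1), the widely expressed death domain receptor, was at 0.91 and 0.75 in sham and at 0.98 and 1.00 in SNL. Its change was 0.16 ± 0.108 (adjusted p = 0.637), with an interval from -0.15 to 0.47, and a second probe gave 0.20. The change of Tnfrsf1b exceeded that of Tnfrsf1a by 1.20 ± 0.189 on the log2 scale, a pair chosen after the values were seen and given without a test.

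Fas, the death domain receptor through which cytotoxic lymphocytes induce apoptosis, was at -2.62 and -3.09 in sham and at -1.85 and -1.63 in SNL. The groups did not overlap, and the change was 1.11 ± 0.212 (unadjusted p = 0.00803, adjusted p = 0.227 in limma). Fas stood alone among the 5 death domain receptors in having an unadjusted p under 0.05. The TRAIL receptor Tnfrsf10b was at a change of 0.20, Tnfrsf21 (death receptor 6), which acts in axon pruning and oligodendrocytes, at 0.0084, and Tnfrsf25, the receptor of Tnfsf15, at -0.27. The sham mice differed by nearly 1 log2 unit for Tnfrsf25, at -4.05 and -5.02, and its change was -0.75 without sham replicate 2 (unadjusted p = 0.0283 in limma) but 0.22 without sham replicate 1.

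Of the other receptors, 14 of 16 were tested, with 2 higher and 2 lower at unadjusted p under 0.05. Besides Tnfrsf1b, the higher one was Tnfrsf14 (HVEM), a receptor of Tnfsf14 on lymphocytes and myeloid cells, at -5.56 and -5.63 in sham and at -5.15 and -4.71 in SNL. Its change of 0.66 ± 0.186 (adjusted p = 0.343) came from 1 probe, while a second probe gave -0.44 and the mean of both 0.11. Tnfrsf13c, the BAFF receptor of B cells, was at -0.85 and -0.69 in sham and at -1.37 and -1.74 in SNL. The groups did not overlap, with a change of -0.78 ± 0.171 (unadjusted p = 0.0124, adjusted p = 0.261), and the mean of its probes gave -0.51. Tnfrsf19 (TROY), an orphan receptor of neural progenitors and glia, was at 0.97 and 0.98 in sham and at 0.73 and 0.49 in SNL. Its change of -0.37 ± 0.124 (adjusted p = 0.399) was -0.24 as the mean of its probes and -0.19 with normexp correction.

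Cd40, the receptor of antigen-presenting cells and microglia that has been studied in nerve injury pain, was at -2.78 and -3.09 in sham and at -2.42 and -2.59 in SNL. The groups did not overlap, yet the change of 0.43 ± 0.156 had an unadjusted p of 0.057 (adjusted p = 0.431), and with normexp correction it was 0.62 with an unadjusted p of 0.00345. The remaining receptors had changes between -0.21 (Tnfrsf9, a costimulator of T cells) and 0.32 (Tnfrsf17, a receptor of plasma cells, with an SE of 0.546). Tnfrsf11a (RANK) was at 0.19, the lymphotoxin receptor Ltbr at 0.079, Tnfrsf12a, the receptor of Tnfsf12, at -0.047, and the T-cell receptors Tnfrsf4 and Tnfrsf18 at -0.00079 and 0.084. Tnfrsf8 (CD30) was at -0.033 and Tnfrsf13b, a BAFF receptor, at -0.15, while another Tnfrsf13b probe gave 0.67 ± 0.110 (unadjusted p = 0.00461, adjusted p = 0.196 over probes). Eda2r, the ectodysplasin receptor, was well above background on 0 arrays and Tnfrsf26 on 1, and neither was tested.

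Among the 3 decoy receptors, Tnfrsf11b (osteoprotegerin), a secreted protein that captures Tnfsf11, was at -2.96 and -2.86 in sham and at -3.35 and -3.36 in SNL. Both SNL mice lay below both sham mice, with a change of -0.44 ± 0.0956 (unadjusted p = 0.012, adjusted p = 0.259). The ligand Tnfsf11 was thus higher and its decoy lower, and their log2 changes lay 2.65 ± 0.408 apart, in a pair chosen after the values were seen and given without a test. The TRAIL decoys Tnfrsf22 and Tnfrsf23 were at 0.0090 and -0.18.

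**Figure D3:**
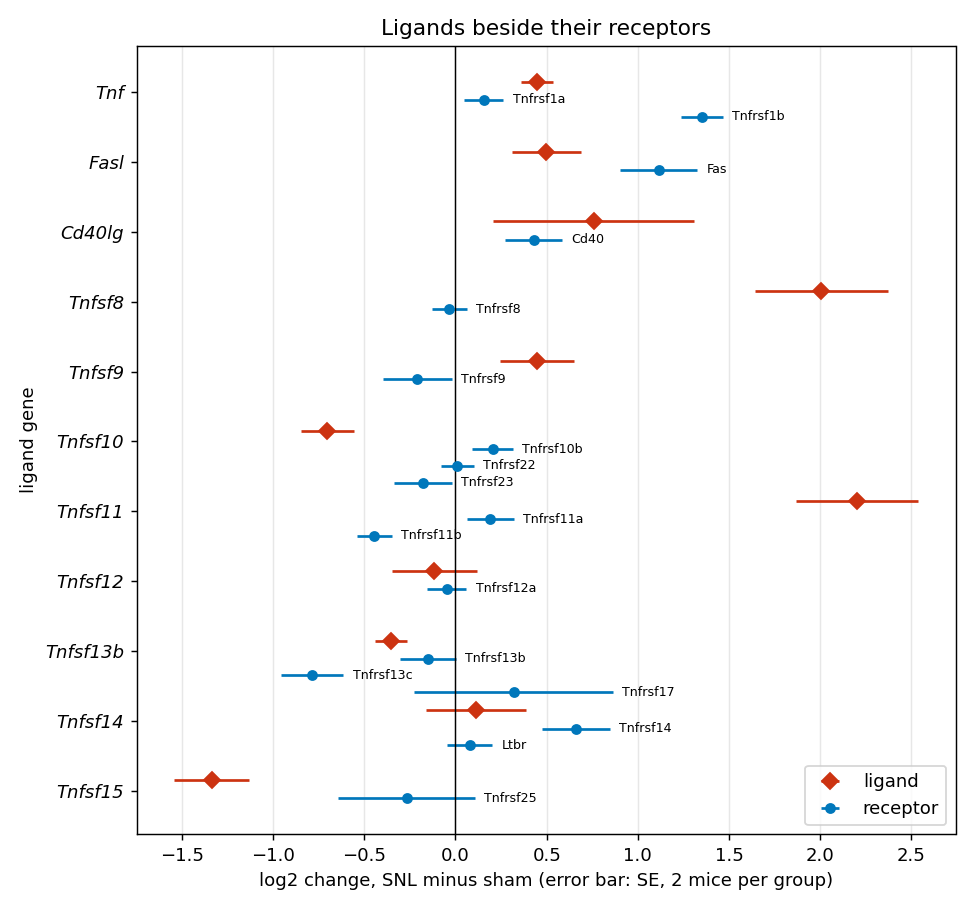
Log2 change, SNL minus sham, of 11 ligands (diamonds) above the receptors they are known to bind (circles). Bars are the limma SE with 2 mice per group. Tnf lies beside a Tnfrsf1b change of 1.35 and a Tnfrsf1a change of 0.16, and Tnfsf8 at 2.01 beside its receptor Tnfrsf8 at -0.033.

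Set beside their receptors, ligands and receptors did not follow one pattern. Fasl and Fas were both above 0, at 0.50 and 1.11, as were Cd40lg and Cd40, at 0.76 and 0.43. Tnfsf13b and Tnfrsf13c were both below 0, at -0.35 and -0.78. For Tnfsf8 the ligand was at 2.01 and the receptor Tnfrsf8 at -0.033, and for Tnfsf15 the ligand was at -1.34 and the receptor Tnfrsf25 at -0.27. Tnfsf10 was at -0.70 and its death receptor Tnfrsf10b at 0.20.

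The TRAF adaptors, which link the receptors to kinases and ubiquitin enzymes, held 0 of 7 members with an unadjusted p under 0.05 in limma and 0 that passed the adjustment. Traf2, the adaptor of both TNF receptor complexes, was at 0.15 and -0.013 in sham and at -0.21 and -0.067 in SNL. Its change was -0.21 ± 0.119 (adjusted p = 0.581), with an interval from -0.55 to 0.14. Traf3, Traf4, Traf5, Traf6 and Traf7 were at changes between 0.0020 and 0.11, and Traf1, whose sham mice were at -1.92 and -1.12, was at -0.14 ± 0.313. Traf1 was at -0.54 without sham replicate 1 (unadjusted p = 0.0442 in limma) and at 0.27 without sham replicate 2, and Traf3 was at -0.30 with normexp correction (unadjusted p = 0.0381 in limma). Of the 3 probes kept for Traf6, the adaptor of RANK, CD40 and interleukin receptors, the lowest gave -0.40.

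Of the 8 genes named as TNF-induced, 2 were higher and 0 lower at unadjusted p under 0.05 by their brightest probe. With the mean of each gene's probes Tnfaip8l3 was lower at that p. Tnfaip8l2 (TIPE2), which restrains inflammatory responses of myeloid cells and lymphocytes, was at -1.92 and -2.29 in sham and at -0.89 and -0.64 in SNL. The groups lay over 1 log2 unit apart, with a change of 1.34 ± 0.188 (unadjusted p = 0.00284, adjusted p = 0.164), and an adjusted p from 0.0229 with a variance trend and robust estimation to 0.610 with a mouse left out. Tnfaip3, the ubiquitin-editing enzyme that shuts off NF-kB signalling, was at -1.83 and -1.90 in sham and at -1.34 and -1.54 in SNL. The groups did not overlap, and the change was 0.42 ± 0.119 (unadjusted p = 0.0272, adjusted p = 0.341).

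The other relatives of Tnfaip8l2 did not share its value: Tnfaip8 was at -0.14, Tnfaip8l1 at 0.48 and Tnfaip8l3 at -0.36. A second probe of Tnfaip8l3 gave -1.18 ± 0.10 (unadjusted p = 0.000457, adjusted p = 0.0897 over probes). Tnfaip1 was at 0.027, Tnfaip2, which shapes membrane nanotubes, at -0.29, and Tnfaip6, a secreted protein that binds hyaluronan, at -0.073. Another Tnfaip6 probe gave -0.64 (unadjusted p = 0.026, adjusted p = 0.341 over probes in limma). In all, 15 members had several probes bright enough to use, and these disagreed in sign for Tnfrsf13b, Tnfrsf14, Tnfrsf23, Tnfrsf9 and Traf6. Which transcript each probe reads was not analysed here.

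Several members are neighbours in the genome, with no protein-coding gene between them in the RefSeq annotation of GRCm38.p6. Tnfsf15 and Tnfsf8 lie next to each other on chromosome 4 and had changes of opposite sign, at -1.34 and 2.01. Tnfrsf1b and Tnfrsf8 are also neighbours there, at 1.35 and -0.033. Ltb, Tnf and Lta lie in a row on chromosome 17, at 0.28, 0.45 and 0.12. On mm9, the build of the array, the probe of Tnfrsf1b lies at chr4:144802359-144802418, that of Tnfsf15 at chr4:63388134-63388193, that of Tnfsf8 at chr4:63493871-63493930, that of Tnfsf11 at chr14:78677444-78677503, that of Tnfaip8l2 at chr3:94943655-94943714, that of Fas at chr19:34402164-34402223 and that of Tnf at chr17:35336795-35336854. Their places in exons were not analysed here.

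The promoter sequence is shown for the receptor and the ligand with the smallest p, for the neighbours Tnfsf15 and Tnfsf8 that differed in sign, and for Tnf and Tnfaip3, both known NF-kB targets. The last 4 were chosen after their values were seen. Each is the 250 bases before the annotated start in RefSeq GRCm38.p6, on the strand of the gene, 5′ to 3′, with matches to the searched motifs in capitals. The places are chr4:145246871-145247120 for Tnfrsf1b, chr14:78308044-78308293 for Tnfsf11, chr4:63745060-63745309 for Tnfsf15, chr4:63861285-63861534 for Tnfsf8, chr17:35202008-35202257 for Tnf and chr10:19015411-19015660 for Tnfaip3, all on the minus strand.
Tnfrsf1b: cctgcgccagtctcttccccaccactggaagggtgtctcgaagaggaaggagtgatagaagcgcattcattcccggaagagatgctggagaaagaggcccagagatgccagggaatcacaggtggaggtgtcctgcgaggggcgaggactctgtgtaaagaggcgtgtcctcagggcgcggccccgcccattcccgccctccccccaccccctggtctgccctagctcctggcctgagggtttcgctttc
Tnfsf11: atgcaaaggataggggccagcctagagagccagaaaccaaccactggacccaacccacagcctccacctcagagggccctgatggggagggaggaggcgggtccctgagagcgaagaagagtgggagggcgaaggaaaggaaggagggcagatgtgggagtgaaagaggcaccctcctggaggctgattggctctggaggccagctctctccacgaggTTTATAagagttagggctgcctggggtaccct
Tnfsf15: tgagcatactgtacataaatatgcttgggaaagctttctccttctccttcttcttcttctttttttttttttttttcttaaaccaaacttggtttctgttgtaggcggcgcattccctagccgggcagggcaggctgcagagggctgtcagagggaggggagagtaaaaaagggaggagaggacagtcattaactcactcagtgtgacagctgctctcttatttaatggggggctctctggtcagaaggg
Tnfsf8: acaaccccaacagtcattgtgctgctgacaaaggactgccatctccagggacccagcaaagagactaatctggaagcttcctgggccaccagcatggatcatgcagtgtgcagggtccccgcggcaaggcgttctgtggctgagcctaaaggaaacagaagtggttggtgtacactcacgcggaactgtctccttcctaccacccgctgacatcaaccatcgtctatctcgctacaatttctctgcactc
Tnf: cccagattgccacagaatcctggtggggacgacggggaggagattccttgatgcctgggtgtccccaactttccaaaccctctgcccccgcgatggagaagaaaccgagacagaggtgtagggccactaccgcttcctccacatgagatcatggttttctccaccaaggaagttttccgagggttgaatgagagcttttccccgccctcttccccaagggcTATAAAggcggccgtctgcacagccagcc
Tnfaip3: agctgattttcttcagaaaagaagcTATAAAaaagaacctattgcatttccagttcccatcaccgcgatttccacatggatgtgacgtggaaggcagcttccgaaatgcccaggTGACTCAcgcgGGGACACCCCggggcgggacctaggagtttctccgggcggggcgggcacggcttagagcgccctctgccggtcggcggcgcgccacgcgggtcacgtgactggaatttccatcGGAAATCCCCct

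The motifs searched on both strands were the NF-kB consensus, the AP-1 site TGANTCA, the PU.1 core GAGGAAGT and the TATA box TATAAA. The Tnfaip3 window held matches to the NF-kB consensus with first bases at -125 and -12 from the start, beside AP-1 at -136 and TATAAA at -225. The other RefSeq start of Tnfaip3 had none of the 4 motifs in its window. The Tnf window held TATAAA at -29, and the Tnfsf11 window held it at -32 on the opposite strand, where the printed strand reads its reverse complement, and the Tnfrsf1b, Tnfsf15 and Tnfsf8 windows held no match to the letters searched. Promoters were found for 44 of the 54 member genes, in 49 windows. The NF-kB consensus occurred in 8 of these windows (16.3%), against 7.28% of 32544 windows of all genes, AP-1 in 7 (14.3%, against 6.73%), PU.1 in 2 (4.08%, against 2.46%) and TATAAA in 8 (16.3%, against 12.3%). The NF-kB matches were in Ltb, Tnfaip2, Tnfaip3, Tnfaip8l1, Tnfrsf25, Tnfrsf8, Tnfrsf9 and Traf3, which were at changes from -0.29 to 0.48. A match is a run of letters and not a measured site.

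Downstream of the receptors, 36 adaptors, kinases and ubiquitin enzymes were tested, and 4 were higher and 2 lower at unadjusted p under 0.05, with 0 past the adjustment in limma and a median of -0.02. The 3 with the smallest p were Birc3, a ubiquitin ligase of the TNF receptor complex that is itself an NF-kB target, at 0.74 ± 0.106 (adjusted p = 0.168), Ripk3, the kinase of necroptosis, at 1.59 ± 0.231 (adjusted p = 0.168), and Ikbke, an IKK-related kinase, at -0.55 ± 0.134 (adjusted p = 0.296). With the mean of each gene's probes 2 were higher and 3 lower, and Birc3 was at 0.61 (unadjusted p = 0.0558 in limma). Among 10 NF-kB subunits and inhibitors, 2 were higher and 1 lower, with a median of 0.13. They were the inhibitor Nfkbia at 0.68 ± 0.0944 (adjusted p = 0.163), the nuclear cofactor Bcl3 at 1.24 ± 0.222 (adjusted p = 0.211) and the inhibitor Nfkbie at -0.48 ± 0.125 (adjusted p = 0.319). Leaving out either SNL mouse or sham replicate 1 left 0 lower.

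Of 18 genes long known to be induced by TNF, 15 were bright enough to test, and 8 were higher and 1 lower at unadjusted p under 0.05, with a median log2 change of 1.60. Without sham replicate 2 the count of higher genes was 2, and without sham replicate 1 it was 5, and without SNL replicate 2 the median was 0.87. Il6 and the adhesion molecule Sele entered the test only through the SNL mice. With signal well above background required on all 4 arrays 6 of 13 were higher, and the median was 1.46. The chemokine Cxcl10 was at 2.37 ± 0.360 (adjusted p = 0.176). The cytokine Il6 was not well above background in the sham mice, so its fitted p is not given. In the main processing it was at least 3.37-fold higher in SNL, where the bound uses the lowest signal well above background on each array. With normexp correction its fitted log2 change was 1.07, against 1.92, which is a smaller fold than that bound. The bound thus holds for the main processing only. The matrix protease Mmp9 was lower, at -1.97 ± 0.166 (adjusted p = 0.0902). Cxcl2, Ccl20 and Csf2 were not tested.

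Of 7 family members that the name rule leaves out, 5 were tested and 0 had an unadjusted p under 0.05 in limma. Ngfr, the neurotrophin receptor of Schwann cells and some neurons, was at 0.80 ± 0.383, the ligand Cd70 at -0.091, the receptor Relt at 0.21 and the ectodysplasin Eda at 0.20. Ngfr was at 0.31 without SNL replicate 1 and at 1.28 without SNL replicate 2 (unadjusted p = 0.006 in limma). Cd27, the receptor of Cd70 and a costimulator of lymphocytes, had signal well above background in the sham mice only. Its fitted p is therefore not given. The fitted change of Cd27 was -0.54, against -0.039 with normexp correction and -0.79 without sham replicate 2. Edar and Edaradd were not tested.

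Markers of microglia and macrophages were higher in SNL cord alongside Tnfrsf1b, Tnfaip8l2 and Fas, with 0 of 10 past the adjustment in limma. All 10 of those listed were above 0, 8 of them at unadjusted p under 0.05 (4 without sham replicate 1 and 5 without sham replicate 2), with a median change of 0.58. Their summed signal, in units of each array's 75th percentile, was 39.4 and 40.2 in the sham mice against 63.5 and 54.8 in the SNL mice. In whole cord, more cells of a type and more RNA per cell cannot be told apart, and the part of these cells in the members' changes was not tested. T-cell markers, set beside the lymphocyte ligands Tnfsf8 and Tnfsf11, held 4 of 8 higher at unadjusted p under 0.05, with a summed signal of 0.45 and 0.43 in the sham mice against 0.49 and 0.53 in the SNL mice. Cd8b1, 1 of the 4, was not well above background in the sham mice, and with all 4 arrays required 3 of 7 were higher. B-cell markers, beside Tnfrsf13c and Tnfsf13b, had 0 of 4 tested at that p in limma and 0 past the adjustment, with sums of 0.17 and 0.33 in the sham mice against 0.26 and 0.18 in the SNL mice. Of the 5 markers of neutrophils and monocytes tested, 0 had that p, with sums of 7.76 and 10.1 in the sham mice against 8.18 and 5.71 in the SNL mice. Endothelial markers, beside Tnfsf15, had 1 of 5 lower at that p and 0 past the adjustment, with sums of 8.47 and 6.70 in the sham mice against 6.62 and 7.79 in the SNL mice. Motor neuron markers had 4 of 5 lower at that p, 2 of them past the adjustment, with sums of 10.5 and 9.64 in the sham mice against 6.19 and 5.27 in the SNL mice, and without sham replicate 1 the count at that p was 2. The part of any of these cells in the results was not tested.

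Sham replicate 2 stood apart in markers of Schwann cells and sensory ganglia, whose summed signal was 5.15 and 0.11 in the sham mice and 5.40 and 3.02 in the SNL mice. How this bears on the members was not tested beyond leaving the mouse out. Without this mouse, Tnfrsf1b, Tnfaip8l2, Tnfsf11, Tnfsf15, Tnfsf8, Fas and Tnfsf10 still had an unadjusted p under 0.05, and the other 7 of the 14 did not. The share of spots well above background was 82.1% and 81.9% on the sham arrays and 74.9% and 78.1% on the SNL arrays, without any saturated spot, and 3 lumbar Hox genes were detected in every mouse. Sham arrays lay in one row of the slide and SNL arrays in the other, so slide position and group cannot be told apart.

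**Figure D4:**
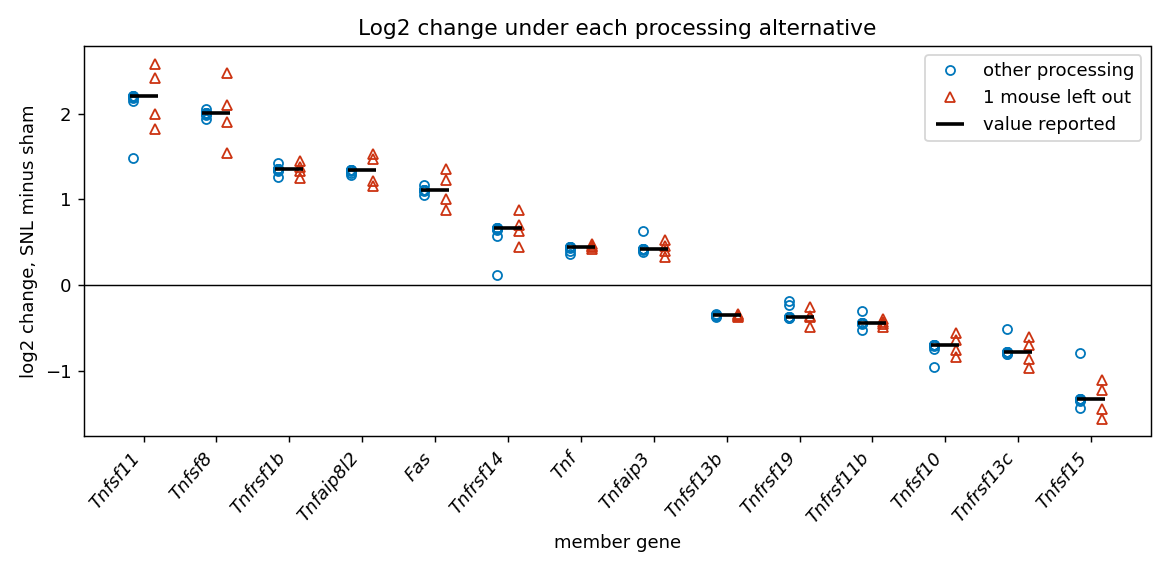
Log2 change, SNL minus sham, of the 14 members with an unadjusted p under 0.05 under each alternative, with circles for other processing, triangles for 1 mouse left out and black bars for the value reported. Every point of a member lies on the same side of 0 as its bar, and other processing takes Tnfrsf14 as low as 0.11 and Tnfsf11 as low as 1.48.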

How the data were processed

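Per the labels' protocols, total RNA from each of 4 mice was amplified, Cy3-labelled and measured on an Agilent array of 1 colour. The authors deposited scanner output with linear spot intensity, written by Agilent Feature Extraction (10.7.3.1 in the file headers, 10.7.1.1 in the submitters' processing notes), with a stand-in value for dim spots. The files carry probe positions on mm9. The authors' deposited table of log2 values, shifted near each array's 75th percentile with an unstated choice of spots (column medians -3.45, -3.52, -3.48 and -3.33), was an alternative.

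The values used were log2(processed signal) less the 75th percentile of 59305 non-control spots of that array. Outlier spots were left out and spots of a probe averaged. Probes well above background on at least 2 of 4 arrays were kept, and the brightest probe stood for its gene. limma 3.58.1 (R 4.3.3; lmFit, eBayes, no covariate) was fitted to all 29114 genes with Benjamini-Hochberg adjustment, after a test on simulated data. Its residual degrees of freedom were 2. With 2 mice per group the smallest two-sided p of an exact permutation test is 0.333, and the number of arrays limits the precision.

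The members, lists and rules were chosen with earlier results of these data known. Full values were given for Tnf, Tnfrsf1a, Tnfrsf1b, Traf2, Tnfaip3, Cd40 and Fas whatever their change, and for members with an unadjusted p under 0.05 and groups that did not overlap. Of each other pathway list the 3 genes with the smallest p were named.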

Additional observations from a re-analysis of the deposited data

How the results depend on the processing

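The fit over all genes was repeated under 13 alternatives. All 14 members with an unadjusted p under 0.05 kept their sign in every one, and 7 of them (Tnfrsf1b, Tnfaip8l2, Tnfsf11, Tnfsf15, Tnfsf8, Fas and Tnfsf10) kept that p in every alternative that tested them. The count of members higher at an adjusted p under 0.05 was 0, and became 1 with normexp correction (Tnfrsf1b), 2 with no filter on dim probes (Tnfrsf1b and Tnfsf4, the latter well above background on 0 arrays) and 2 under robust estimation with a variance trend (Tnfrsf1b and Tnfaip8l2). It stayed 0 with each mouse left out. The count at unadjusted p was 8 higher and 6 lower, and leaving out 1 mouse gave 5 to 10 higher and 3 to 5 lower, lowest on both sides without sham replicate 2. The members' median change of 0.02 became -0.015 with quantile normalization, and with 1 mouse left out it ran from -0.0027 (without sham replicate 2) to 0.079 (without sham replicate 1). Same-numbered mice did not deviate together (r = -0.027 over genes), but this 1 correlation cannot tell whether the mice were paired. With the replicate number as a block, 11 members were higher and 4 lower at unadjusted p under 0.05, and 0 passed the adjustment. A block for slide or scan was not run, as there was 1 slide and 1 scan. A fit on single probes was chosen after seeing the data. Of the other 36 members, 20 turned sign and 10 had an unadjusted p under 0.05 under at least 1 alternative. The cause of these changes was not tested. Signal over background limits Tnfsf11 and Cd40lg, which were not well above background in every mouse.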
